A study of Homo sapiens with 6 samples.

Results

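Integrins are receptors of the cell surface, each made of 1 alpha and 1 beta chain, and laminins are secreted proteins of the basement membrane, each made of 1 alpha, 1 beta and 1 gamma chain. Their genes were taken from the count table as every protein-coding row whose symbol begins with ITGA, or is ITGB, LAMA, LAMB or LAMC followed by a single digit. This gave 36 of the 30327 genes of the table, of which 25 encode integrin chains (17 alpha and 8 beta) and 11 encode laminin chains (4 alpha, 4 beta and 3 gamma). Of the 36 genes, 22 had enough reads to be tested and 14 did not.

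Poly(A) RNA of SK-BR-3, an established human breast cancer cell line that overexpresses the receptor HER2 (ERBB2), was sequenced in 6 libraries. The 3 libraries labelled si_NC came from cells transfected with a nontargeting siRNA, and the 3 libraries labelled si_GRB2 from cells transfected with an siRNA against GRB2, the adaptor protein that links receptor tyrosine kinases to Ras. The sample titles of the second group name GRB2 overexpression, whereas the sample descriptions name si_GRB2, and the groups here follow the descriptions. The study's methods also list a GRB2 overexpression group for the RNA sequencing, while its results describe a GRB2 knockdown. Levels of single genes are given in CPM, reads scaled to a common library size with TMM factors. GRB2 read 124, 129 and 126 CPM under si_NC, and the libraries labelled si_GRB2 read 27.8, 28.1 and 29.6 CPM. The log2 fold change of GRB2 was -2.15 (SE 0.04, adjusted p = 3.87e-15 by edgeR's quasi-likelihood test), which goes with the descriptions and against the titles. The study's methods print 1 siRNA sequence against GRB2, so effects of that siRNA other than on GRB2 cannot be told apart from those of GRB2.

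Each library held between 24810378 and 28532480 reads on genes. Libraries of the same group correlated at 0.992 to 0.996 in log2 CPM, libraries of different groups at 0.988 to 0.992, and no library stood apart. ERBB2 (3496 ± 74.8 CPM in si_NC, SD, n = 3), EPCAM, GRB7 and the keratins KRT7, KRT8, KRT18 and KRT19 were abundant, as the label SK-BR-3 requires. These 7 markers summed to 19570 to 20040 CPM in si_NC and 16350 to 17030 CPM in si_GRB2. All 7 differed, ERBB2 higher and the other 6 lower, with KRT18 at a log2 fold change of -0.55 (SE 0.02, adjusted p = 3.72e-11). The 7 fibroblast markers summed to 4.06 to 6.34 CPM in si_NC and 4.57 to 5.21 CPM in si_GRB2. Of the leukocyte markers, PTPRC had 2 reads over all libraries, CD3E 14, LYZ 37 and CD14 87. The 4 endothelial markers listed summed to 28.9 to 30.9 CPM and 17.5 to 21.4 CPM, nearly all of it CDH5, while PECAM1 and KDR had 3 reads each. The 4 basal or myoepithelial markers summed to 18.4 to 20.1 CPM and 9.01 to 9.82 CPM, nearly all of it KRT5, while TP63 had 19 reads. CDH5, KRT5 and ACTA2 were lower in si_GRB2, at log2 fold changes of -0.61, -1.02 and -1.31. These shifts in marker level run beside every chain described here, and their part in the results was not tested. In bulk RNA, fewer cells of a kind and less RNA per cell cannot be told apart.

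An integrin reaches the cell surface only as a pair, so the set of alpha and beta chains that a cell makes limits which receptors it can carry. The beta1 chain pairs with many alpha chains, alphaV pairs with several beta chains, and beta4 pairs with alpha6 alone. Integrins that bind laminin hold epithelial cells on the basement membrane, and those that recognise the RGD peptide bind fibronectin, vitronectin or latent TGF-beta. Signals from both kinds pass through adaptor proteins and focal adhesion kinase to the Ras and actin pathways. Laminins assemble inside the cell as trimers before they are secreted.

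Levels between chains were compared in FPKM, the authors' value per length of gene. In SK-BR-3 cells the highest levels were those of ITGB5 (18.8 ± 0.688 FPKM in si_NC, SD, n = 3), LAMA5 (17.9 ± 1.81), LAMB1 (13.3 ± 0.59) and LAMB2 (9.84 ± 0.777). ITGB5 is the beta chain of a vitronectin receptor, and LAMA5 is the alpha chain of laminins found under most epithelia. Next came ITGB6 (5.31 ± 0.105 FPKM) and ITGAV (5.11 ± 0.031), which form a receptor for latent TGF-beta. ITGAE (3.79 ± 0.197), ITGB1 (3.25 ± 0.042), ITGA3 (3.22 ± 0.217), LAMB3 (3.02 ± 0.262) and ITGB4 (2.33 ± 0.069) followed. The si_NC libraries of ITGB1, ITGA3 and LAMB3 overlapped in FPKM.

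**Figure D1:**
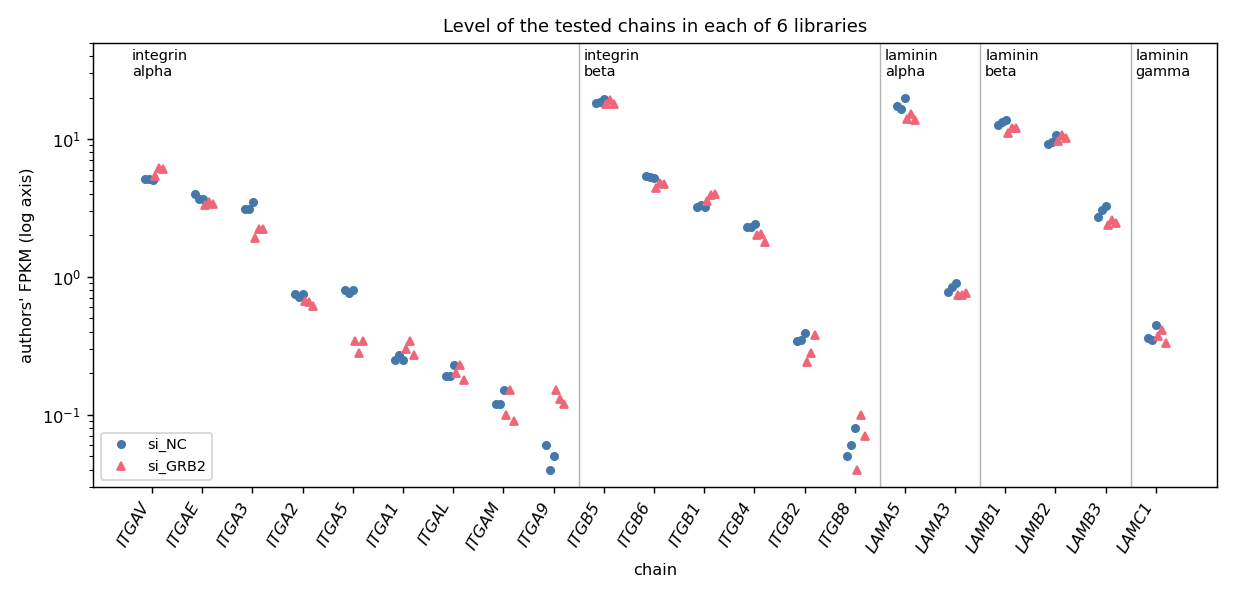
Level of tested chains in each of the 6 libraries, as the authors' FPKM on a log axis, with si_NC libraries as blue circles and si_GRB2 libraries as red triangles. ITGB5, LAMA5, LAMB1 and LAMB2 lie highest of all chains drawn, LAMC1 lies below 1 FPKM, and the groups are well separated for ITGA3, ITGA5 and ITGA9.

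The 14 chains that were not tested had 1 to 44 reads summed over the 6 libraries, and no library had more than 13 reads of any of them. ITGA7, a laminin-binding alpha chain of muscle, had 44 reads and ITGA10, a collagen-binding chain, 39. LAMA2, the laminin alpha chain of muscle, had 38 reads, and ITGB7 and ITGA4, which pair on lymphocytes, had 31 and 18. ITGA2B of platelets had 29 reads and its partner ITGB3 had 1. ITGA11 had 10 reads, LAMB4 had 5, LAMA4 and LAMC3 had 2 each, and ITGAD and ITGAX had 1 each. ITGA6, the partner of ITGB4 in hemidesmosomes, had 8 reads, against 2840 reads of ITGB4. For 6 of the 14 no library exceeded 3 reads, which is a floor of 0.105 to 0.121 CPM, so a difference between groups was not detectable at this depth.

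Of the 22 tested chains, 12 differed between si_GRB2 and si_NC at an adjusted p under 0.05 (edgeR's quasi-likelihood test), 3 of them higher and 9 lower. This is 54.5% of the tested chains, beside 30.6% of the 15801 genes tested. The chains called higher made up 13.6%, beside 15.2% of all genes, and those called lower 40.9%, beside 15.5%. The median log2 fold change of the 22 chains was -0.21, and that of all genes tested was 0.00 to 2 decimals. The groups did not overlap in CPM for 14 of the 22 chains, and they did not overlap for 42.3% of all genes. Integrin chains were called in both directions (3 higher and 5 lower of 15 tested), while the 4 called laminin chains of 7 tested were all lower. With limma on log2(FPKM + 1) only ITGA3, ITGA5, ITGA9 and LAMA5 were called, and ITGB6 joined them with log2(FPKM + 0.1).

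Past a fold change of 1.5, or its inverse, with an adjusted p under 0.01 were 3 chains. ITGA5 and ITGA3 were lower, where 1.69% of all genes passed on that side, and ITGA9 was higher, where 0.829% of all genes passed. With 3 libraries against 3, an exact two-sided permutation test over libraries cannot give a p below 0.1, and that value was reached by each of the 14 chains whose groups did not overlap.

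**Figure D2:**
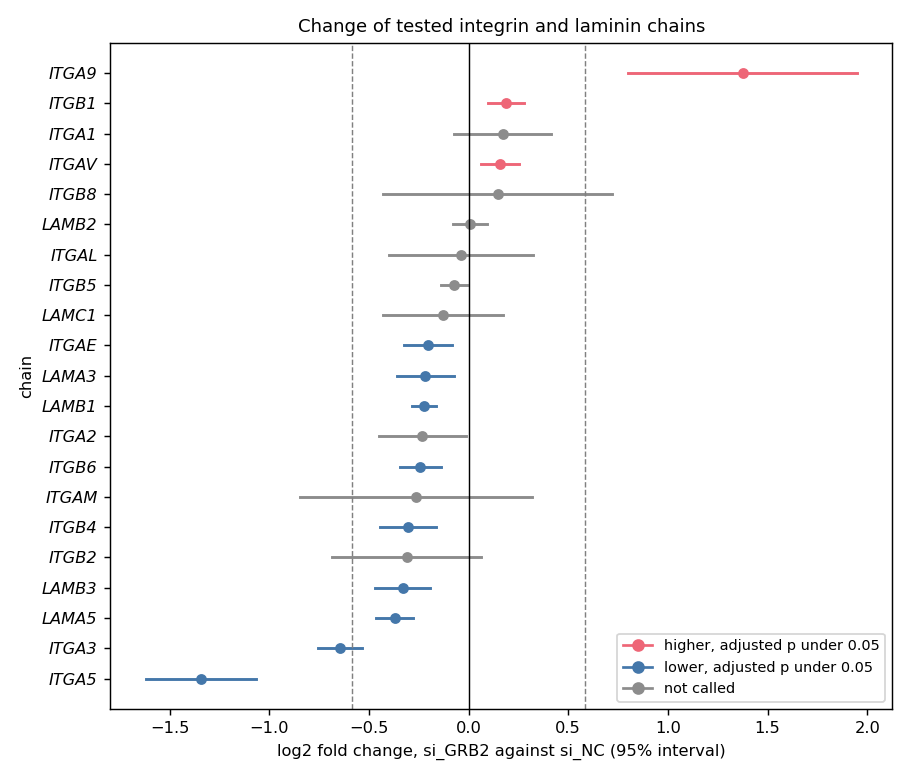
Log2 fold change of si_GRB2 against si_NC for tested chains, with the 95% interval of the edgeR fit as a bar. Dashed lines mark a fold change of 1.5 in either direction. ITGA9 lies past the upper line and ITGA5 past the lower line with their whole intervals, while the interval of ITGA3 crosses the lower line.

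ITGA5, the alpha chain of the main fibronectin receptor, showed the largest decrease. It read 7.66, 7.06 and 7.09 CPM in si_NC and 3.14, 2.47 and 3 CPM in si_GRB2. Every si_GRB2 library lay below every si_NC library, by more than the range within either group. The log2 fold change was -1.34 (SE 0.13, 95% interval -1.62 to -1.07, adjusted p = 1.02e-06 by edgeR), and it was -1.41 to -1.24 when any single library was left out. ITGA5 was the only chain that also passed edgeR's test against the fold limit of 1.5 itself. The gene lies at chr12:54395261-54419266 on the minus strand of GRCh38.

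The promoter window of ITGA5 in RefSeq (GRCh38.p14, chr12:54419217-54419516, minus strand, 250 bases before to 50 after the start) is printed because it is the chain with the largest decrease. It held 1 match to the AP-1 motif TGACTCA, here as TGAGTCA of the other strand, and 1 match to the GC box GGGCGG, here as CCGCCC, both shown in capitals. Its GC content was 69.3%, beside a median of 58.7% over all windows.
ITGA5: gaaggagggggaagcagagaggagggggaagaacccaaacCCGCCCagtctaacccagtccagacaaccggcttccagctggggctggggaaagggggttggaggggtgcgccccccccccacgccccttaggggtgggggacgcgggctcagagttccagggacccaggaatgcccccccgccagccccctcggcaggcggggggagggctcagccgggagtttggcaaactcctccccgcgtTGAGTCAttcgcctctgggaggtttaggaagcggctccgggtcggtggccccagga

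The AP-1 motif was searched on both strands in all 35116 RefSeq promoter windows, and 4.95% held it. Of the tested chains, 16 had a window (22 windows in all). The motif was held by 3 of the 22 windows, from ITGA5, LAMA3 and LAMB3. No window of ITGA3 or ITGA9 was among those given, so neither was searched. The stretches of 30 bases around each match are shown for comparison, 5′ to 3′ on the gene's strand, with the motif in capitals.
LAMB3, chr1:209651423-209651452, minus strand: gtcagccactcTGACTCAttcactttgggc
ITGA5, chr12:54419254-54419283, minus strand: cctccccgcgtTGAGTCAttcgcctctggg
LAMA3, chr18:23872884-23872913, plus strand: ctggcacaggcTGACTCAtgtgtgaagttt
LAMA3, chr18:23872940-23872969, plus strand: ccttcctcaccTGAGTCAggcaggcccggg
The first letter of the match lay 67 bases before the annotated start for LAMB3, 6 bases for ITGA5, and 125 and 69 bases for LAMA3. For LAMB3 and LAMA3 the window belongs to an internal start of the gene. A GC box was held by 16 of the 22 windows (12 of the 16 chains) and by 45% of all windows. The ETS motif CCGGAAG (other strand CTTCCGG) was held by 2 of the 22 windows, from ITGB5 and LAMA5, and by 10.3% of all windows. The CRE motif TGACGTCA and the E-box CACGTG, each its own reverse complement, were found in none of the 22 windows and in 1.85% and 7.26% of all windows. A match describes the letters of the window and does not show that a factor binds there, and the motifs were chosen with the expression results known.

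ITGA3, the laminin-binding alpha chain that pairs with beta1, read 38.9, 38.1 and 40.6 CPM in si_NC and 23.5, 25.8 and 26 CPM in si_GRB2. The groups were far apart and each was narrow. Its log2 fold change was -0.65 (SE 0.05, 95% interval -0.75 to -0.54, adjusted p = 1.03e-07 by edgeR). It lies at chr17:50055968-50090481 on the plus strand. Of the other laminin-binding alpha chains, ITGA6 and ITGA7 had too few reads to test.

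ITGA9, whose product pairs with beta1 and binds tenascin-C and osteopontin, was the chain with the largest increase. It read 0.606, 0.431 and 0.463 CPM in si_NC and 1.55, 1.24 and 1.15 CPM in si_GRB2. These are 11 to 17 reads per si_NC library and 29 to 39 reads per si_GRB2 library, so its level was among the lowest of the tested chains, and the groups did not overlap. ITGA9 had a log2 fold change of 1.37 (SE 0.27, 95% interval 0.80 to 1.95, adjusted p = 9.73e-04 by edgeR). ITGA9, at chr3:37452115-37823507 on the plus strand, shares 763 exonic bases with the antisense gene ITGA9-AS1. The antisense gene had 220% of the reads of ITGA9 and a log2 fold change of 0.33 (SE 0.19, adjusted p = 0.219). Whether the counts used the strand is not given in the sources used here, so reads of the shared bases are uncertain.

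**Figure D3:**
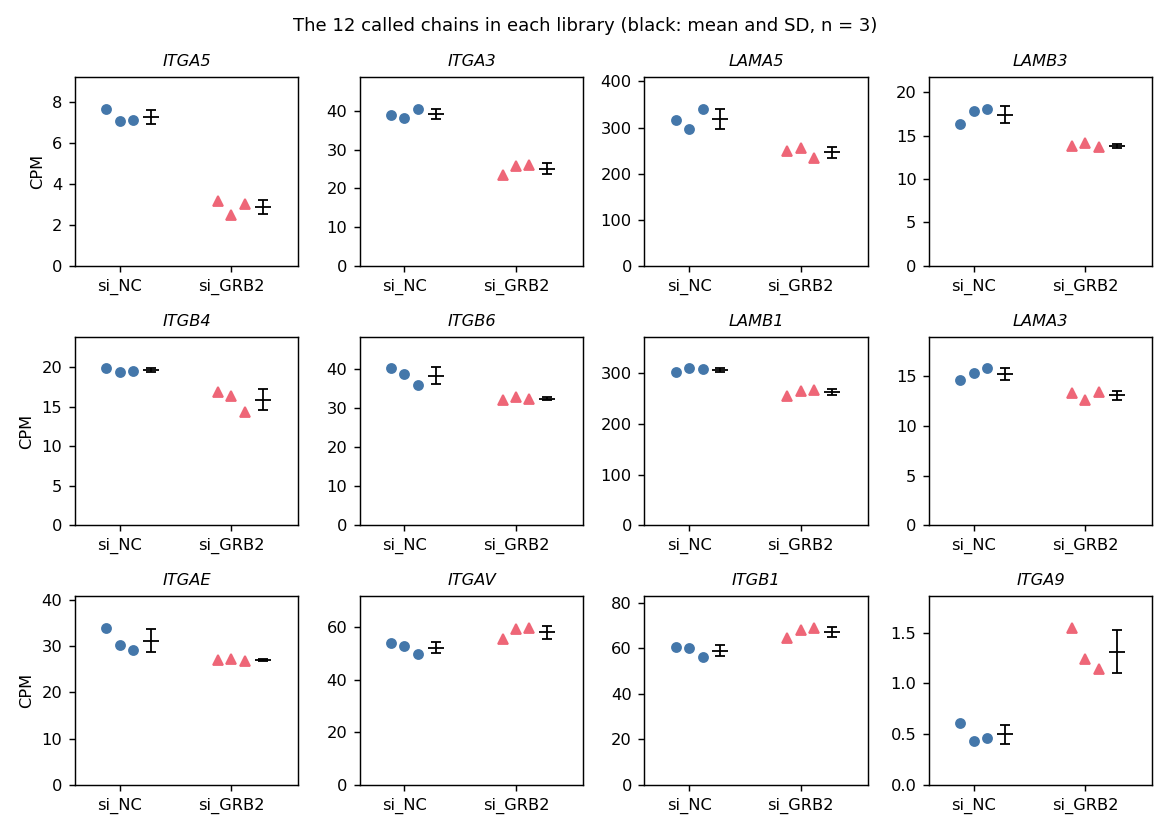
CPM of the 12 called chains in each library, on axes that start at 0, with si_NC as blue circles, si_GRB2 as red triangles and the mean with its SD in black (n = 3). In all 12 panels the groups do not overlap, with ITGAV, ITGB1 and ITGA9 higher in si_GRB2 and the other 9 lower.

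ITGAV and ITGB1, which can pair with each other, were both slightly higher in si_GRB2. ITGAV (chr2:186590010-186680901) read 54, 53 and 50 CPM in si_NC and 55.4, 59.5 and 59.9 CPM in si_GRB2. ITGB1 (chr10:32887273-33005792) read 60.5, 60.3 and 56.1 CPM in si_NC and 64.5, 68 and 69.1 CPM in si_GRB2. In both genes the lowest si_GRB2 library lay just above the highest si_NC library. The log2 fold change of ITGAV was 0.16 (SE 0.04, adjusted p = 0.0134 by edgeR), and that of ITGB1 was 0.19 (SE 0.04, adjusted p = 2.75e-03). The call of ITGAV was lost without si_NC replicate 3 (adjusted p = 0.0645), without si_GRB2 replicate 2 (0.0645) and without si_GRB2 replicate 3 (0.0601).

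Of the tested beta chains that pair with alphaV and no other alpha chain, ITGB6 was lower, and ITGB5 and ITGB8 were not called. ITGB6 (chr2:160099667-160200313), of the receptor for latent TGF-beta, read 40.1, 38.6 and 35.9 CPM in si_NC and 31.9, 32.7 and 32.4 CPM in si_GRB2. It was lower by a log2 fold change of -0.24 (SE 0.05, adjusted p = 1.16e-03 by edgeR). ITGB5, the most abundant beta chain, read 152, 152 and 152 CPM in si_NC and 146, 147 and 140 CPM in si_GRB2. Its groups did not overlap, but the difference did not pass the test (log2 fold change -0.07, 95% interval -0.14 to -0.01, adjusted p = 0.0771). ITGB8, which also activates latent TGF-beta, had 1.21 ± 0.218 CPM in si_NC and 1.33 ± 0.493 CPM in si_GRB2 (SD, n = 3) and was not called, with an interval of -0.43 to 0.72 on the log2 scale.

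ITGB4, the long beta chain of hemidesmosomes, read 19.9, 19.4 and 19.5 CPM in si_NC and 16.8, 16.4 and 14.4 CPM in si_GRB2. The si_NC libraries were nearly equal and the si_GRB2 libraries all lay below them. Its log2 fold change was -0.30 (SE 0.07, adjusted p = 2.16e-03 by edgeR). ITGB4, at chr17:75721328-75757818, lies 316 kb from GRB2 itself on chromosome 17.

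ITGAE, known from lymphocytes that bind E-cadherin on epithelia, was among the more abundant alpha chains of these cells by FPKM, while its partner ITGB7 had 31 reads in all. It read 34, 30.3 and 29.2 CPM in si_NC and 27.1, 27.2 and 26.8 CPM in si_GRB2. The si_GRB2 libraries were nearly equal, and si_NC replicate 1 lay well above the other two. ITGAE had a log2 fold change of -0.21 (SE 0.06, adjusted p = 0.0111 by edgeR), and the call was lost without that library (adjusted p = 0.063) and with library totals alone (adjusted p = 0.0513). ITGAE (chr17:3714628-3801188, minus strand) shares exonic bases with HASPIN on the other strand, which had 30.2% of its reads and a log2 fold change of -0.04.

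The collagen-binding chains ITGA1 and ITGA2, which lie 30.1 kb apart on chromosome 5, were not called. ITGA2 read 7.62, 7.1 and 7.05 CPM in si_NC and 6.63, 6.15 and 5.76 CPM in si_GRB2, without overlap, at a log2 fold change of -0.23 (95% interval -0.45 to -0.01, adjusted p = 0.107). ITGA1 read 5.97 ± 0.389 CPM in si_NC and 6.7 ± 0.761 CPM in si_GRB2, with overlap (0.17, 95% interval -0.07 to 0.42). ITGA1 shares exonic bases with PELO on the same strand, which had 558% of its reads and was itself higher (0.14, adjusted p = 0.0317), so the value of ITGA1 is uncertain.

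The leukocyte chains ITGAL, ITGAM and ITGB2 were low and overlapped between groups. ITGB2 read 2.96, 3.02 and 3.24 CPM in si_NC and 2.03, 2.29 and 3.12 CPM in si_GRB2, at a log2 fold change of -0.31 (95% interval -0.68 to 0.06, adjusted p = 0.209). The antisense gene ITGB2-AS1, with 50.2% of the reads of ITGB2, read 1.74 ± 0.112 CPM in si_NC and 1.04 ± 0.015 CPM in si_GRB2 (SD, n = 3) and was called lower (-0.74, SE 0.20, adjusted p = 0.0108). ITGAL and ITGAM had log2 fold changes of -0.04 and -0.26, with adjusted p of 0.905 and 0.531. PTPRC, the marker of all leukocytes, had 2 reads in the 6 libraries.

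LAMA5 was the most abundant laminin alpha chain and was lower in si_GRB2. It read 317, 297 and 341 CPM in si_NC and 250, 256 and 233 CPM in si_GRB2. The groups were apart although the si_NC libraries varied among themselves. LAMA5 was lower at a log2 fold change of -0.37 (SE 0.04, 95% interval -0.46 to -0.28, adjusted p = 7.91e-06 by edgeR). LAMA5 lies at chr20:62307955-62367312 on the minus strand and shares 244 exonic bases with ADRM1 on the other strand. ADRM1, with 72.2% of the reads of LAMA5, was called in the opposite direction (0.13, SE 0.03, adjusted p = 0.0103).

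LAMB1, a beta chain that joins LAMA5 and LAMC1 in laminin-511, read 302, 310 and 308 CPM in si_NC and 256, 264 and 268 CPM in si_GRB2. Both groups were tight and did not overlap. LAMB1 was lower at a log2 fold change of -0.22 (SE 0.03, adjusted p = 1.30e-05 by edgeR). LAMB1 (chr7:107923799-108003213, minus strand) shares 300 exonic bases with DLD on the other strand, which had 103% of its reads and was called in the opposite direction (0.21, SE 0.03, adjusted p = 3.92e-05). LAMB2, the beta chain of laminin-521, read 81.4, 82.3 and 88 CPM in si_NC and 82.6, 87.1 and 83.2 CPM in si_GRB2. Its log2 fold change was 0.01 with a 95% interval of -0.08 to 0.09, which leaves out a change as large as that of LAMB1.

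LAMC1, the gamma chain of both trimers, read 3.92, 3.76 and 4.6 CPM in si_NC and 3.85, 4.08 and 3.32 CPM in si_GRB2. The groups overlapped, and the log2 fold change was -0.13 (95% interval -0.43 to 0.17, adjusted p = 0.561). Per length, LAMC1 was far below its partners, with LAMA5 at 46.5 ± 1.9 times its FPKM in si_NC and 38.7 ± 2.31 times in si_GRB2 (SD, n = 3). LAMB1 was at 34.6 ± 3.64 and 31.9 ± 4.01 times the FPKM of LAMC1, with overlap. The laminin alpha chains together summed to 18.8 ± 1.86 FPKM in si_NC and 15.1 ± 0.783 FPKM in si_GRB2.

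LAMB3 and LAMA3, which belong to the laminin that anchors stratified and glandular epithelia, were both lower. LAMB3 (chr1:209614870-209652425) read 16.4, 17.8 and 18.1 CPM in si_NC and 13.8, 14.1 and 13.7 CPM in si_GRB2. Its log2 fold change was -0.33 (SE 0.07, adjusted p = 1.05e-03 by edgeR). LAMA3 (chr18:23689453-23956222) read 14.6, 15.3 and 15.8 CPM in si_NC and 13.3, 12.6 and 13.4 CPM in si_GRB2. It was called lower at -0.22 (SE 0.07, adjusted p = 0.0231), but not with DESeq2 (adjusted p = 0.108), with library totals alone (0.0737), or without si_NC replicate 2, si_NC replicate 3 or si_GRB2 replicate 2 (0.0556, 0.0741 and 0.0973).

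The make-up of each class was described by the share of each chain in the summed FPKM of its class. ITGAV made up 35.5 ± 0.848% of the alpha chains in si_NC and 44.4 ± 0.973% in si_GRB2 (SD, n = 3). ITGA3 went from 22.3 ± 1.23% to 16 ± 0.567% and ITGA5 from 5.48 ± 0.106% to 2.43 ± 0.356%. None of these 3 shares overlapped between groups, while ITGAE overlapped at 26.3 ± 1.28% and 25.7 ± 0.67%. The ratio of ITGAV to ITGA5 in FPKM was 6.32, 6.76 and 6.35 in si_NC and 15.9, 21.9 and 17.9 in si_GRB2. The ratio of ITGB1 to ITGA5, the chains of the fibronectin receptor, was 4, 4.34 and 4.03 in si_NC and 10.5, 14.1 and 11.7 in si_GRB2.

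The order of the alpha chains depended on the gene lengths used. With CPM per kilobase of all GENCODE 44 exons, ITGAE came first at 33.1% in si_NC, followed by ITGA3 at 28.1% and ITGAV at 19.0%. In si_GRB2 the same measure gave 34.5% for ITGAE, 21.6% for ITGA3 and 25.4% for ITGAV. The gain of ITGAV and the drops of ITGA3 and ITGA5 kept their direction, and the mean share of ITGAE was higher in si_GRB2 instead of lower.

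**Figure D4:**
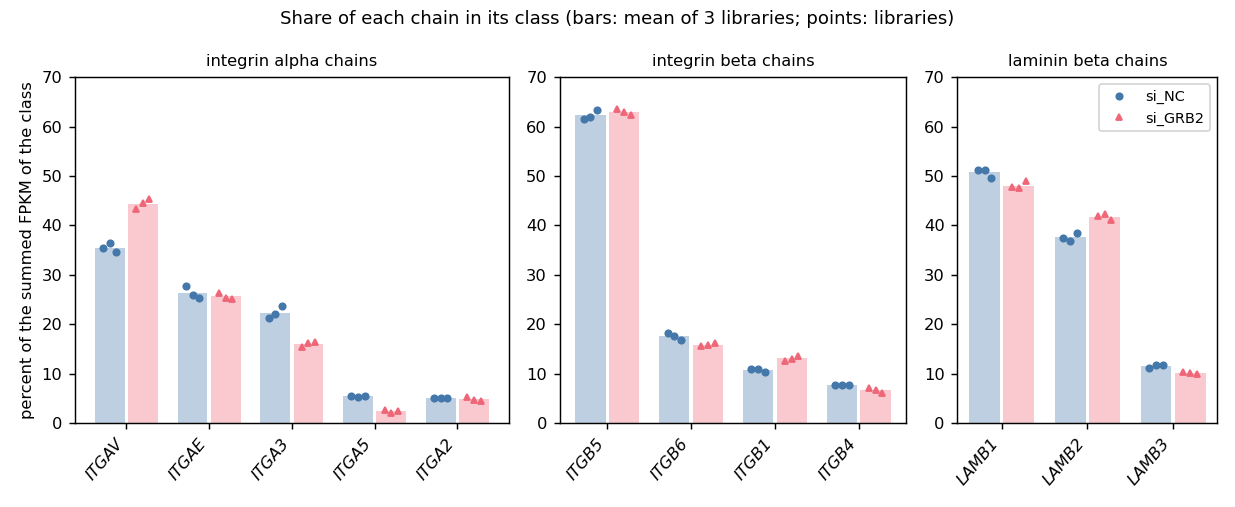
Share of integrin alpha, integrin beta and laminin beta chains in the summed FPKM of their class, as percent on axes that start at 0. Chains with a mean share of at least 3% over both groups are drawn, with bars at the mean of 3 libraries and points for single libraries. ITGAV, ITGB1 and LAMB2 take a larger share in si_GRB2, and ITGA3, ITGA5, ITGB6, ITGB4, LAMB1 and LAMB3 a smaller one, without overlap.

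Among the beta chains ITGB5 held 62.3 ± 0.922% of the FPKM in si_NC and 63 ± 0.69% in si_GRB2, with overlap. ITGB1 went from 10.8 ± 0.319% to 13.1 ± 0.598%, ITGB6 from 17.6 ± 0.723% to 15.9 ± 0.314% and ITGB4 from 7.73 ± 0.082% to 6.66 ± 0.455%. LAMA5 was 95.4 ± 0.309% of the laminin alpha chains in si_NC and 94.9 ± 0.322% in si_GRB2, with overlap. Among the laminin beta chains LAMB1 went from 50.8 ± 0.905% to 48.1 ± 0.74%, LAMB3 from 11.6 ± 0.384% to 10.1 ± 0.166% and LAMB2 from 37.6 ± 0.839% to 41.8 ± 0.637%, each without overlap. A share can also rise because other chains of its class fall, and LAMB2 itself was not called (log2 fold change 0.01). Each share without overlap had an exact permutation p of 0.1, the smallest that 3 against 3 libraries can give.

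The summed FPKM of the alpha chains was 14.4 ± 0.262 in si_NC and 13.2 ± 0.679 in si_GRB2, and that of the beta chains was 30.1 ± 0.655 and 29.2 ± 0.997 (exact permutation p = 0.1 and 0.3, n = 3 in each group). The laminin beta chains summed to 26.1 ± 1.59 and 24.4 ± 1.16 FPKM (exact permutation p = 0.2), and the laminin alpha chains, given above, had the smallest value of 0.1.

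Genes that act with these chains were described from 3 lists. Of 32 genes for integrin adaptors and actin linkers, 29 were tested, and 3 were higher and 10 lower, at a median log2 fold change of -0.08. Past the fold and p limits were TLN2, a talin that links beta chains to actin (-0.70, SE 0.11, adjusted p = 1.78e-04), and NEDD9, a scaffold of focal adhesions (-0.66, SE 0.05, adjusted p = 1.79e-08). The actin-binding proteins ZYX, ACTN1 and FLNA were lower as well, at -0.38, -0.38 and -0.35, and TLN1, the main talin, had 0.04 (adjusted p = 0.439). TLN1 is named beside TLN2 after its value was seen.

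Of 18 other basement membrane genes, 10 were tested, and 1 was higher and 3 lower, at a median log2 fold change of -0.11. VTN, vitronectin, a ligand of alphaV integrins, read 4.1 ± 0.252 CPM in si_NC and 2.55 ± 0.54 CPM in si_GRB2 (-0.68, SE 0.16, adjusted p = 4.35e-03 by edgeR). The fibulins FBLN1 and EFEMP1 were lower at -0.40 and -0.37, and NTN4, a netrin that binds laminin gamma chains, was higher at 0.13. NID1 and TNC, which are among the 18, had no protein-coding row in the count table, so they could not be tested.

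Of 15 laminin receptors and partners other than integrin chains, 13 were tested, and 1 was higher and 4 lower, at a median log2 fold change of -0.01. DAG1, dystroglycan, a laminin receptor, read 294 ± 8.38 CPM in si_NC and 364 ± 9.86 CPM in si_GRB2 (0.31, SE 0.03, adjusted p = 8.06e-07 by edgeR). The syndecan SDC1, the laminin receptor BCAM and RPSA were lower, at -0.19, -0.15 and -0.12. RPSA is a ribosomal protein with many processed pseudogenes, so its count is uncertain. The shares called in the 3 lists were read beside 15.2% higher and 15.5% lower over all genes tested.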

How the data were processed

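The libraries were made from poly(A) RNA with a strand-specific dUTP protocol, and nothing in the labels says whether the 3 libraries of a group came from separate cultures, so p-values measure only the spread between these libraries. The authors trimmed the reads, mapped them with HISAT2 (build GRCh38), retained reads with a unique position, and deposited read counts per gene without normalization and FPKM rounded to 2 decimals. The counting tool, annotation release, strand setting and FPKM total are not given in the sources used here. Counts were fitted in edgeR 4.0.16 (R 4.3.3) with TMM factors, filterByExpr (15801 of 30327 genes kept), glmQLFit and glmQLFTest, with p adjusted over those genes by Benjamini-Hochberg and no covariate. The SE is the log2 fold change divided by the square root of F. The study's methods used DESeq2. DESeq2 1.42.0, limma 3.58.1 on log2(FPKM + 1) or log2(FPKM + 0.1), other scalings and filters, glmTreat, a replicate block and leaving out each library were alternatives. Total counts per library were 24810378 to 28532480, and floors cover counting error only. FPKM held 32 of the 36 chains. Of the gene IDs, 99.7% were found in GENCODE 44, which gave positions and overlaps. Overlapping genes were named where they had at least 10% of a tested chain's reads. The edgeR step was tested on simulated counts with 200 changed genes. The chains, gene lists and motifs were chosen with earlier results of these data known. 1 tested chain, counted in the totals, and 1 marker are not reported here. All other chains were named, and from each list the genes past the fold and p limits and the 4 with the smallest adjusted p.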

Additional observations from a re-analysis of the deposited data

How the results depend on the processing

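Of the 12 chains called, limma called 4 on log2(FPKM + 1) (1 higher and 3 lower) and 5 on log2(FPKM + 0.1) (1 higher and 4 lower). The 3 chains past the fold and p limits became 0 with limma on log2(FPKM + 1), and 1, ITGA5, with edgeR's glmTreat against the fold limit. With limma on log2(FPKM + 1) the integrin adaptors called were 8 instead of 13, and the other laminin receptors 1 instead of 5, also on log2(FPKM + 0.1). Without a filter on low counts the basement membrane partners called were 7 instead of 4. Of 308 refitted log2 fold changes, 276 kept direction and side of the threshold, 25 lost a call and 7 changed sign. The changes of sign were all in chains that were not called: ITGAL at 0.0126 with library totals alone and -0.1128 to 0.0551 with 1 library left out, ITGB8 at -0.1535 to 0.3878 and LAMB2 at -0.0226 to 0.037. The cause of these differences was not tested. By CPM per kilobase of exons the change in share, in percentage points, was 0.152 for ITGA2, 1.42 for ITGAE and 6.4 for ITGAV, against -0.24, -0.65 and 8.88 by FPKM. Same-numbered libraries correlated at 0.232, -0.095 and 0.080 in their deviations, and differently numbered ones at -0.282 to 0.228. So few values cannot decide whether the numbers pair the libraries. With the replicate block 12 chains were called and 3 passed the fold and p limits. Chains with under 50 reads in all could not be compared at this depth.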
